A study of Mus musculus with 16 samples.

Results

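RNA levels of 33 regulators of the primed epiblast and of early cell lineages were examined in WT and Cfp1-/- mouse ES cells, each untreated or treated with doxorubicin. The genes were taken from a list chosen with earlier results of these data known, so shares among them do not stand for lineage genes in general. They fall into 19 epiblast and neural genes, 8 mesendoderm genes and 6 extraembryonic genes. Of the 33 genes, 32 were matched by symbol to the 22375 genes of the count tables, and Sox1 was not analysed here. After removal of genes with low counts, 27 of the 32 could be tested among 15758 genes. Gsc, Evx1, Foxa2, Cdx1 and Cdx2 had too few counts and are described by their values alone.

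ES cells are pluripotent and keep lineage genes low or silent, while a primed state, close to that of the epiblast after implantation, is marked by genes such as Fgf5 and Otx2. From the epiblast arise neural tissue, whose regulators include SOX, ZIC and PAX proteins, and mesendoderm, whose early regulators are the T-box proteins T and Eomes. Extraembryonic endoderm and trophoblast are specified by other factors, among them GATA4, GATA6 and CDX2. Cfp1, encoded by Cxxc1, binds unmethylated CpG dinucleotides and brings the Set1 methyltransferase to promoters, where histone H3 is trimethylated at lysine 4. Doxorubicin is a DNA-damaging agent that activates p53.

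The WT cells were E14TG2a ES cells and the Cfp1-/- cells lacked both copies of Cxxc1. All cells were of the 129/OLA strain and were grown on gelatin in serum and LIF, a cytokine that maintains ES cells. Each genotype was left untreated or received doxorubicin at 1 μM for 6 hours per the treatment protocol, although the treatment label of the treated samples gives 1000 μM. There were 4 groups of 2 biological replicates, each sequenced in 2 technical replicates that were summed, so n = 2 in every group. The sources used here do not say whether the Cfp1-/- cells were a single clone or what replicates with the same number shared.

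Total counts per library ranged from 14880589 to 29422711, so 3 counts or fewer in a library were taken as the floor. Cxxc1 had between 616 and 1412 raw counts in the 4 WT libraries and between 1 and 5 in the 4 Cfp1-/- libraries. In replicate 1 of treated Cfp1-/- cells, the second technical replicate had lost most counts on chromosomes X and Y and on much of chromosome 19, and Sox3, on chromosome X, was the single member touched. The summed normalized counts of 13 ES cell markers, none of them at 0 in any library, ranged from 102015 to 129574 in untreated WT, from 40236 to 51687 in treated WT, from 108148 to 114226 in untreated Cfp1-/- and from 37993 to 51228 in treated Cfp1-/- cells. Of these 13 markers 11 (84.6%) fell with doxorubicin in each genotype, beside 21.8% of all tested genes in WT and 21% in Cfp1-/- cells. The 10 fibroblast markers summed to between 628 and 898 in untreated WT, 764 and 1208 in treated WT, 260 and 286 in untreated Cfp1-/- and 473 and 639 in treated Cfp1-/- cells, with at most 2 of them at 0 in a library. Of the 8 that could be tested, 1 was higher and 4 were lower in untreated Cfp1-/- than in WT cells. With the drug 1 was higher and 2 were lower, and 3 rose with doxorubicin in each genotype. Of all tested genes 17.9% were higher and 16.1% lower in untreated Cfp1-/- cells, and 15.1% and 10.8% in treated ones. With doxorubicin 26.5% of all tested genes rose in WT and 27.8% in Cfp1-/- cells. ES cell markers thus moved with treatment in the same direction as many of the genes described next, fibroblast markers were lower in sum in Cfp1-/- than in WT cells, and the part of either list in those results was not tested. In bulk RNA, fewer cells of a type and less RNA per cell cannot be told apart.

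The 250 bases before the start site, from RefSeq on GRCm38.p6, are shown for Foxd3 and Zic5, which fell with doxorubicin in both genotypes, for Bcl11a, which fell in WT and rose in Cfp1-/- cells, for Meis1, which was higher in Cfp1-/- cells, and for Lhx1, which rose in both genotypes. They are printed 5′ to 3′ on the strand of the gene, with each CpG, the dinucleotide that Cfp1 binds when unmethylated, in capitals.
Foxd3, chr4:99656049-99656298, plus strand: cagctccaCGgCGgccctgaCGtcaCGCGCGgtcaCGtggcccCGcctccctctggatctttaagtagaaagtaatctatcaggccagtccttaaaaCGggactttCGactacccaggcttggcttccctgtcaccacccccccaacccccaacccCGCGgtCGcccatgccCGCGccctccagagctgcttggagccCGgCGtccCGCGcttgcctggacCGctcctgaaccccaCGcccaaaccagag
Zic5, chr14:122465659-122465908, minus strand: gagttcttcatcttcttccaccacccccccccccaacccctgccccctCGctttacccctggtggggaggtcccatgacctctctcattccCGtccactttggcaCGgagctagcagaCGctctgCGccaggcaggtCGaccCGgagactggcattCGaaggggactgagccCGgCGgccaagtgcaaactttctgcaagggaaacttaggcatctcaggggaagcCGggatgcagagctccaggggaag
Bcl11a, chr11:24080445-24080694, plus strand: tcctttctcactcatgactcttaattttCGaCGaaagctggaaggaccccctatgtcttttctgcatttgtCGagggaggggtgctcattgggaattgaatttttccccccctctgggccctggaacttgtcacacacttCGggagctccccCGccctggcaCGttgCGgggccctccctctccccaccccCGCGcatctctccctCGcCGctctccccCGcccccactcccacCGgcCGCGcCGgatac
Meis1, chr11:19018970-19019219, minus strand: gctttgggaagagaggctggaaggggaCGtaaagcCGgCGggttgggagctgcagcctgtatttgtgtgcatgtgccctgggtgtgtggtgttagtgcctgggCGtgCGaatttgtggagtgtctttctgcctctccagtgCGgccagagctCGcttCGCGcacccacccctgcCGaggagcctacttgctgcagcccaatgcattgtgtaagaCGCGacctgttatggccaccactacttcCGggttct
Lhx1, chr11:84525535-84525784, minus strand: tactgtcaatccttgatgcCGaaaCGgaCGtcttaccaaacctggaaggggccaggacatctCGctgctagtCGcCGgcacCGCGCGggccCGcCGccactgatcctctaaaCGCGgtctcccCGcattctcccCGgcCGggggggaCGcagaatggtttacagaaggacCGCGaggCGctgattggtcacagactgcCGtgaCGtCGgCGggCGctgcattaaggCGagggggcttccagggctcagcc

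A CpG reads CG on both strands, so 1 search covers both. Foxd3 had 21 CpGs in its window, Zic5 had 11, Bcl11a had 16, Meis1 had 13 and Lhx1 had 26. Cdx1 and Gata6, on chromosome 18, were left out of this step. RefSeq promoters were matched for 21 other members, and 17 of these had a single start site. Over these 17 the number of CpGs ranged from 7 for Meis2 to 27 for Zic1, with a median of 14. Across 32851 promoters of the same length the median was 6, and 92.1% held at least 1 CpG. All 17 windows lay above that median. Members with several start sites were not among them. Otx2 and Foxa2 each had a window with 6 CpGs, equal to the median. The other windows of such members held 8 to 20. The count describes these windows alone, and methylation was not examined.

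**Figure D1:**
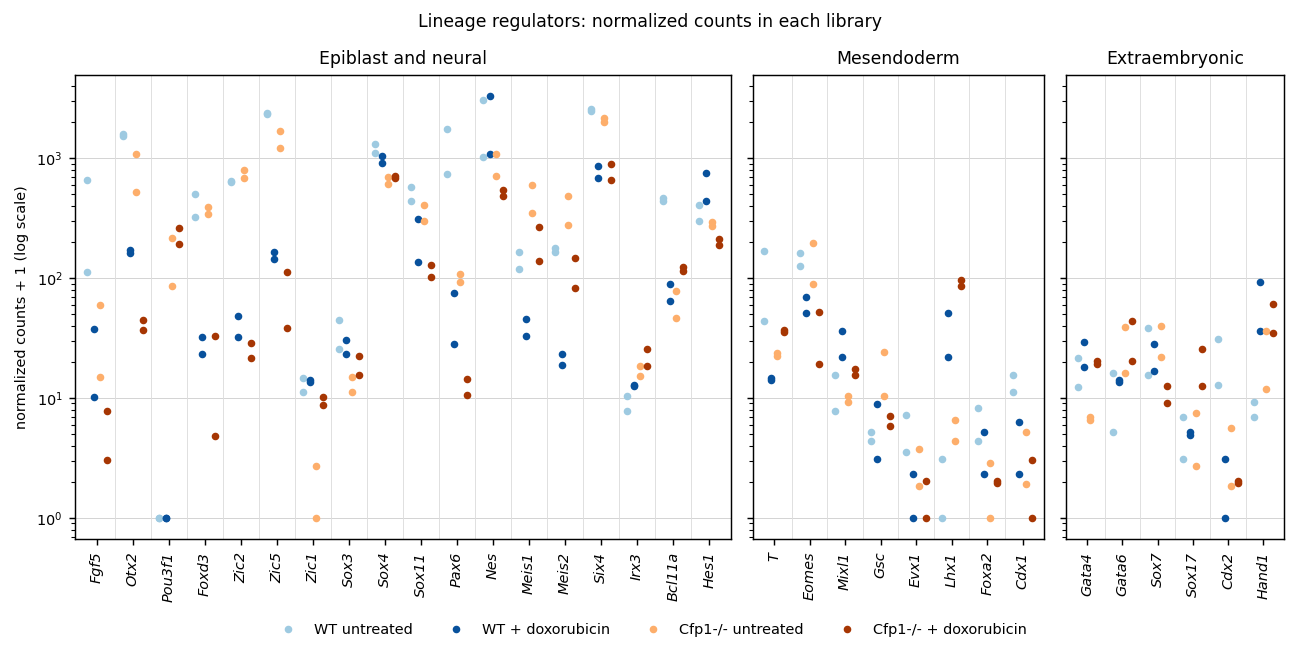
Normalized counts (plus 1, log scale) of the 32 matched genes in each of the 8 libraries, 2 points per group, for WT untreated, WT with doxorubicin, Cfp1-/- untreated and Cfp1-/- with doxorubicin. Most epiblast and neural genes lie far above the mesendoderm and extraembryonic genes, and Pou3f1 sits at 0 counts in all 4 WT libraries.

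Normalized counts are summed counts divided by a size factor for each library. Corrected for exon length, the most abundant members in untreated WT cells were Zic5 with 481 normalized counts per kb of exon, Otx2 with 461 and Six4 with 449, followed by Nes with 316. Among mesendoderm genes T reached 45.3 and Eomes 34.2 per kb, while the others lay at 7.08 or less. No extraembryonic gene exceeded 9.32 per kb, the value of Cdx2. In untreated Cfp1-/- cells Six4 (371 per kb), Zic5 (297) and Otx2 (236) again led, and Hand1 (11.6) was the highest of the extraembryonic genes.

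Doxorubicin lowered a large share of the epiblast and neural genes in WT cells. Of the 18 tested, 11 fell, Hes1 alone rose and 6 did not pass an adjusted p of 0.05, with a median log2 fold change of -1.76 against 0.06 over all genes tested. Over all members 4 rose and 12 fell of 27, beside a background of 26.5% of all tested genes higher and 21.8% lower. In Cfp1-/- cells 9 of the 18 epiblast and neural genes fell, 2 rose and 7 did not pass, with a median of -1.29 against 0.01 over all genes. Over all members 5 rose and 10 fell there, beside 27.8% of all tested genes higher and 21% lower. Scaling by total counts instead of TMM moved the median of all genes by 0.31 in WT and 0.21 in Cfp1-/- cells and raised the share of higher genes among all called genes from 54.9% to 75.7% and from 57% to 71.9%, and the falls of Otx2, Foxd3, Zic2, Zic5, Pax6, Meis2 and Six4 remained in both genotypes.

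The 9 members Otx2, Foxd3, Zic2, Zic5, Pax6, Sox11, Meis1, Meis2 and Six4 fell in both genotypes. In untreated WT cells their mean levels ran from 141 to 2524 normalized counts (median 638), whereas the other 18 tested members ran from 0 to 2031 (median 21), so the genes that fell in both were mostly the more abundant ones, for which a fall is also easier to detect.

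ZIC proteins are zinc finger transcription factors of the epiblast and neural plate. Zic2 and Zic5 lie head to head on chromosome 14, with Zic5 on the minus strand (122856017 to 122864899, NCBIm37) and Zic2 on the plus strand (122874604 to 122879074), 9704 bp apart. Zic2 had 647 and 629 normalized counts in untreated WT, 31.4 and 47.5 in treated WT, 677 and 801 in untreated Cfp1-/- and 20.4 and 28.0 in treated Cfp1-/- cells. Both genotypes were high without and low with the drug, with no overlap. The log2 fold change was -3.95 (SE 0.25, adjusted p = 5.37e-06) in WT, a 16.2-fold fall of the mean, and -4.88 (SE 0.27, adjusted p = 3.92e-06) in Cfp1-/- cells, a 30.5-fold fall. Zic5 went from 2377 and 2322 to 144 and 164 in WT and from 1222 and 1682 to 112 and 37.6 in Cfp1-/- cells. The neighbours thus fell together, with log2 fold changes of -3.88 (SE 0.37, adjusted p = 3.91e-05) and -4.24 (SE 0.39, adjusted p = 3.44e-05) for Zic5. Zic1, a low member of the family on chromosome 9, had 10.2 and 13.6 in untreated and 13.1 and 12.7 in treated WT cells (log2 0.17, adjusted p = 0.824). Its untreated Cfp1-/- libraries held 0 and 2 raw counts and its treated ones 9 and 8, so it rose there (adjusted p = 0.0143) by a ratio of 9.53 with an exact 95% counting interval of 2.26 to 85.1. This call was lost without replicate 1 of the untreated (adjusted p = 0.0795) or of the treated cells (adjusted p = 0.0626).

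Otx2 and Fgf5 mark the primed epiblast, the former as a homeobox factor and the latter as a secreted growth factor. Otx2 had 1597 and 1532 normalized counts in untreated WT, 160 and 170.1 in treated WT, 522 and 1078 in untreated Cfp1-/- and 35.7 and 43.4 in treated Cfp1-/- cells. The drug lowered it 9.49-fold in WT (log2 -3.20, SE 0.31, adjusted p = 3.86e-05) and 20.2-fold in Cfp1-/- cells (log2 -4.29, SE 0.34, adjusted p = 1.67e-05). Fgf5 (chromosome 5, 98683203 to 98706049) had 110.4 and 658 in untreated WT, 9.17 and 37.0 in treated WT, 13.9 and 58.3 in untreated Cfp1-/- and 2.04 and 6.75 in treated Cfp1-/- cells. Replicate 2 was 3.3 to 5.96 times higher than replicate 1 in every group, so its groups spread widely. Fgf5 fell in WT (log2 -3.96, SE 0.95, adjusted p = 0.00703), a call lost without replicate 2 of untreated WT cells (log2 -2.18, adjusted p = 0.0539). In Cfp1-/- cells its log2 fold change was -2.95 (SE 1.22, adjusted p = 0.0709), and with the replicate number as a block it passed at an adjusted p of 0.000122.

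Foxd3, a forkhead factor of pluripotent cells and neural crest, had 499 and 319 normalized counts in untreated WT, 31.4 and 22.2 in treated WT, 388 and 338 in untreated Cfp1-/- and 31.7 and 3.86 in treated Cfp1-/- cells. It fell 15.2-fold in WT (log2 -3.89, SE 0.57, adjusted p = 0.000461) and 20.5-fold in Cfp1-/- cells (log2 -4.32, SE 0.59, adjusted p = 0.000325). In the annotation used here an overlapping gene shares 3.8% of its exon bases, where reads may have been left uncounted. Pax6, the paired-box regulator of eye and forebrain, had 1761 and 738 in untreated WT but 108 and 91.3 in untreated Cfp1-/- cells, and with the drug 74.7 and 27.5 in WT and 13.3 and 9.64 in Cfp1-/- cells. Each treated group lay below its untreated group, and each Cfp1-/- group below its WT counterpart. Pax6 fell by 4.60 (SE 0.51, adjusted p = 9.08e-05) in WT and by 3.06 (SE 0.60, adjusted p = 0.00234) in Cfp1-/- cells on the log2 scale.

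Six4, a homeobox factor of placodes and muscle, was one of the steadier members. It had 2575 and 2473 normalized counts in untreated WT, 688 and 861 in treated WT, 2170 and 2001 in untreated Cfp1-/- and 896 and 655 in treated Cfp1-/- cells. It fell 3.26-fold in WT (log2 -1.66, SE 0.18, adjusted p = 8.29e-05) and 2.69-fold in Cfp1-/- cells (log2 -1.38, SE 0.18, adjusted p = 0.000238), and treated cells of the genotypes overlapped. Sox11, a SOX factor of neural progenitors, went from 435 and 572 to 135 and 313 in WT (log2 -1.12, SE 0.36, adjusted p = 0.0267) and from 298 and 409 to 129 and 100.3 in Cfp1-/- cells (log2 -1.58, SE 0.37, adjusted p = 0.00593). The WT call of Sox11 was lost with total count scaling (log2 -0.80, adjusted p = 0.089), in a fit of the WT groups alone (adjusted p = 0.0637), without replicate 2 of untreated WT (adjusted p = 0.108) and without replicate 1 of treated WT cells (adjusted p = 0.119), and the Cfp1-/- call without replicate 2 of the treated cells (adjusted p = 0.0579).

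Meis1 and Meis2 encode homeodomain partners of HOX and PBX proteins. Meis1 had 163 and 119 normalized counts in untreated WT, 44.5 and 31.7 in treated WT, 600 and 351 in untreated Cfp1-/- and 265 and 138 in treated Cfp1-/- cells. Meis2 had 178 and 163, then 22.3 and 18.0 in WT, and 479 and 276, then 145 and 81.9 in Cfp1-/- cells. For both genes the Cfp1-/- libraries lay above the WT libraries of the same treatment, and the treated below the untreated ones. The drug lowered Meis1 by 1.85 (SE 0.42, adjusted p = 0.00529) and 1.20 (SE 0.37, adjusted p = 0.0219) and Meis2 by 3.04 (SE 0.41, adjusted p = 0.000285) and 1.69 (SE 0.35, adjusted p = 0.00302) on the log2 scale in WT and Cfp1-/- cells. The fall of Meis1 in Cfp1-/- cells was lost without replicate 1 of the untreated (adjusted p = 0.172) or replicate 2 of the treated cells (adjusted p = 0.159).

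Hes1, a Notch-responsive repressor, was the epiblast and neural gene that rose in WT cells, from 296 and 403 to 440.1 and 756 normalized counts (log2 0.82, SE 0.27, adjusted p = 0.0283). This call was lost without replicate 1 of untreated WT (log2 0.62, adjusted p = 0.155) or replicate 2 of treated WT cells (log2 0.37, adjusted p = 0.28) and in a fit of the WT groups alone (log2 0.83, adjusted p = 0.0699). In Cfp1-/- cells Hes1 had 290.2 and 269 without and 209 and 188 with the drug (log2 -0.45, SE 0.27, adjusted p = 0.2). Nes, which encodes the intermediate filament nestin of neural progenitors, differed more between replicates than between treatments in WT cells, with 1026 and 3036 without and 1081 and 3318 with doxorubicin (log2 0.16, SE 0.53, adjusted p = 0.818). Sox4 (adjusted p = 0.195 and 0.522), Sox3 (0.565 and 0.329) and the low Irx3 (0.374 and 0.445) did not pass in WT or in Cfp1-/- cells.

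**Figure D2:**
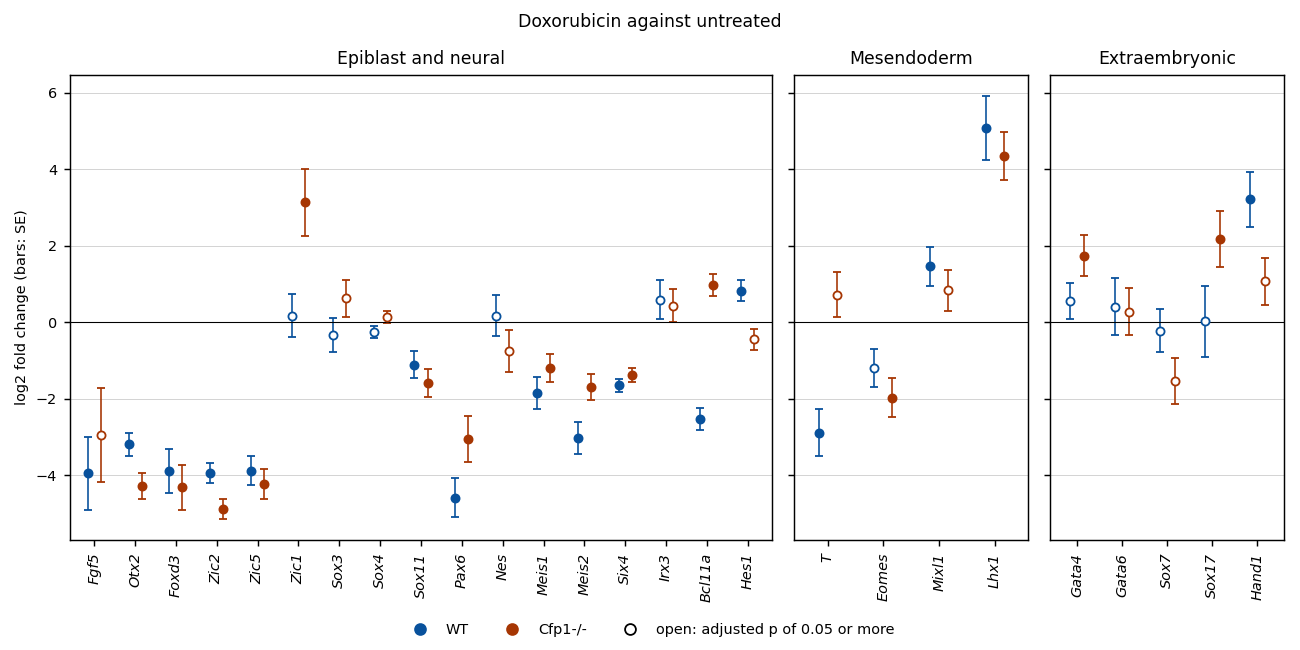
Log2 fold change with doxorubicin in WT (blue) and Cfp1-/- cells (brown) for 26 tested members, with bars of 1 SE from edgeR and open points where the adjusted p is 0.05 or more. Zic2, Zic5, Foxd3, Otx2 and Pax6 lie below -3 in both genotypes, Bcl11a lies at -2.54 in WT and 0.98 in Cfp1-/- cells, and the values of Lhx1 in WT and Zic1 in Cfp1-/- cells rest on untreated libraries with 2 or fewer counts.

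Mesendoderm genes did not share a direction. Of the 4 tested, Lhx1 and Mixl1 rose, T fell and Eomes did not pass in WT cells, while in Cfp1-/- cells Lhx1 rose, Eomes fell and T and Mixl1 did not pass. Lhx1, a LIM-homeobox gene of the anterior mesendoderm, had 0 and 2 raw counts in untreated WT and 38 and 20 in treated WT cells, a ratio of 36.2 (exact 95% counting interval 9.59 to 306, adjusted p = 0.000907). In Cfp1-/- cells it went from 5.56 and 3.38 to 84.8 and 94.5 normalized counts (log2 4.34, SE 0.62, adjusted p = 0.000419). Lhx1 was thus the member that rose in both genotypes, with no overlap between treated and untreated libraries.

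T, the Brachyury gene that marks the primitive streak, had 42.5 and 167 normalized counts in untreated WT cells and 13.1 and 13.7 in treated ones. In Cfp1-/- cells it had 21.3 and 22.8 without and 34.7 and 35.7 with the drug. The drug was followed by a lower level in both WT replicates and a higher one in both Cfp1-/- replicates. T fell in WT (log2 -2.89, SE 0.62, adjusted p = 0.00383), and its value in Cfp1-/- cells was 0.71 (SE 0.59, adjusted p = 0.344). Eomes went from 124 and 161 to 49.8 and 68.7 in WT (log2 -1.21, SE 0.50, adjusted p = 0.0691, or 0.03 with the replicate block). It passed in WT in 4 of 8 alternatives that kept every library. Besides the block these were DESeq2's Wald test (0.0347), no filter on low counts (0.0276) and a fit of the WT groups alone (0.0271). Its response difference was -0.77 (adjusted p = 0.758). In Cfp1-/- cells Eomes went from 194 and 87.9 to 51.1 and 18.3 and fell (log2 -1.98, SE 0.51, adjusted p = 0.0103). That fall was lost without replicate 1 of the untreated (adjusted p = 0.0864) or replicate 2 of the treated Cfp1-/- cells (adjusted p = 0.0794). Mixl1, a homeobox gene of the streak, had 8 and 14 raw counts in untreated and 16 and 33 in treated WT cells and rose (log2 1.46, SE 0.51, adjusted p = 0.0386), but not by DESeq2's Wald test (adjusted p = 0.147), with first technical replicates alone (0.135), in a fit of the WT groups alone (0.0768) or without replicate 1 of untreated (0.221) or replicate 2 of treated WT cells (0.244).

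The untested mesendoderm genes were low throughout. Gsc, the organizer homeobox gene, had 25 and 11 raw counts in untreated Cfp1-/- cells and from 2 to 6 in the other 6 libraries. Cdx1, a caudal-type homeobox gene, had 12 and 14 raw counts in untreated WT cells and at most 5 elsewhere. Foxa2, the forkhead factor of endoderm and node, had at most 7 and Evx1, an even-skipped homeobox gene, at most 6 raw counts, both in untreated WT cells.

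Extraembryonic genes had few counts in all groups. Of the 5 tested with edgeR none fell with doxorubicin, against 0 in WT and 1 in Cfp1-/- cells at an unadjusted p under 0.05, whereas Hand1 rose in WT and Gata4 and Sox17 rose in Cfp1-/- cells. Hand1, a basic helix-loop-helix factor of trophoblast and heart, had 5.95 and 8.34 normalized counts in untreated WT, 35.4 and 91.9 in treated WT, 35.2 and 11.0 in untreated Cfp1-/- and 60.3 and 33.7 in treated Cfp1-/- cells. It rose 8.91-fold in WT (log2 3.21, SE 0.71, adjusted p = 0.00469), and the Cfp1-/- groups overlapped (log2 1.07, SE 0.62, adjusted p = 0.181). Gata4, a zinc finger factor of primitive endoderm, had 20.4 and 11.5 without and 17.0 and 28.5 with the drug in WT, and 5.56 and 5.92 without and 19.4 and 18.3 with it in Cfp1-/- cells. WT libraries overlapped, and Cfp1-/- libraries did not (log2 1.74, SE 0.53, adjusted p = 0.0226). Sox17, an endoderm SOX factor, had 6.49 and 1.69 without and 24.5 and 11.6 with the drug in Cfp1-/- cells (log2 2.17, SE 0.73, adjusted p = 0.032), against values from 2.08 to 5.95 in WT cells.

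The Gata4 call was lost without any 1 of the 4 Cfp1-/- libraries, with adjusted p from 0.0768 to 0.0977, and that of Sox17 without replicate 2 of the untreated (0.203) or replicate 1 of the treated cells (0.231). By DESeq2's Wald test neither passed, with 0.0844 for Gata4 and 0.134 for Sox17. Sox7, a further endoderm SOX factor 671981 bp from Gata4 on chromosome 14, had 38.9 and 21.1 without and 8.17 and 11.6 with the drug in Cfp1-/- cells (log2 -1.55, SE 0.60, adjusted p = 0.0557, or 0.039 with the replicate block). Gata6, the primitive endoderm partner of Gata4, lay between 4.17 and 42.9 in the 8 libraries and did not pass in WT (adjusted p = 0.686) or Cfp1-/- cells (0.745). Cdx2, the trophoblast homeobox gene, had 14 and 29 raw counts in untreated and 0 and 2 in treated WT cells, a ratio of 17.2 of untreated over treated (exact 95% counting interval 4.48 to 147), and between 1 and 5 in Cfp1-/- cells. It was not tested by edgeR after the filter on low counts, and it passed as lower in treated WT cells by DESeq2's Wald test.

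Bcl11a was the member whose response to doxorubicin differed between the genotypes. It encodes a zinc finger repressor of neural and blood cells and lies on chromosome 11 (23978056 to 24074123). Bcl11a had 464 and 442 normalized counts in untreated WT, 62.9 and 87.7 in treated WT, 45.4 and 76.9 in untreated Cfp1-/- and 122 and 113 in treated Cfp1-/- cells. Untreated WT libraries stood far above the other 6, and treated Cfp1-/- libraries lay above both untreated Cfp1-/- and treated WT libraries. It fell 6.02-fold in WT (log2 -2.54, SE 0.29, adjusted p = 0.000113) and rose 1.92-fold in Cfp1-/- cells (log2 0.98, SE 0.29, adjusted p = 0.0199). The response difference, Cfp1-/- minus WT, was 3.51 (SE 0.41, adjusted p = 0.0317).

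By this interaction test 1 of 27 members passed, beside 0.114% of all tested genes with a higher and 0.121% with a lower response in Cfp1-/- cells, 37 genes in all. At an unadjusted p under 0.05 there were 8 of the 27 members and 1671 of the 15758 genes. When each library was left out in turn, the Bcl11a interaction did not pass in 5 of 8 fits, those without replicate 1 of treated WT (adjusted p = 0.0552), replicates 1 (0.118) and 2 (0.0518) of untreated Cfp1-/- and replicates 1 (0.146) and 2 (0.154) of treated Cfp1-/- cells, with values from 3.17 to 3.93. Its rise in Cfp1-/- cells was lost with first technical replicates alone (log2 0.79, adjusted p = 0.072) and without replicate 1 of untreated (0.137), replicate 1 of treated (0.0859) or replicate 2 of treated Cfp1-/- cells (0.0617). For T the response difference was 3.61 (SE 0.85, adjusted p = 0.167), and it passed with the replicate block (3.51, adjusted p = 0.039) and by DESeq2's Wald test (3.63, adjusted p = 0.0143).

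**Figure D3:**
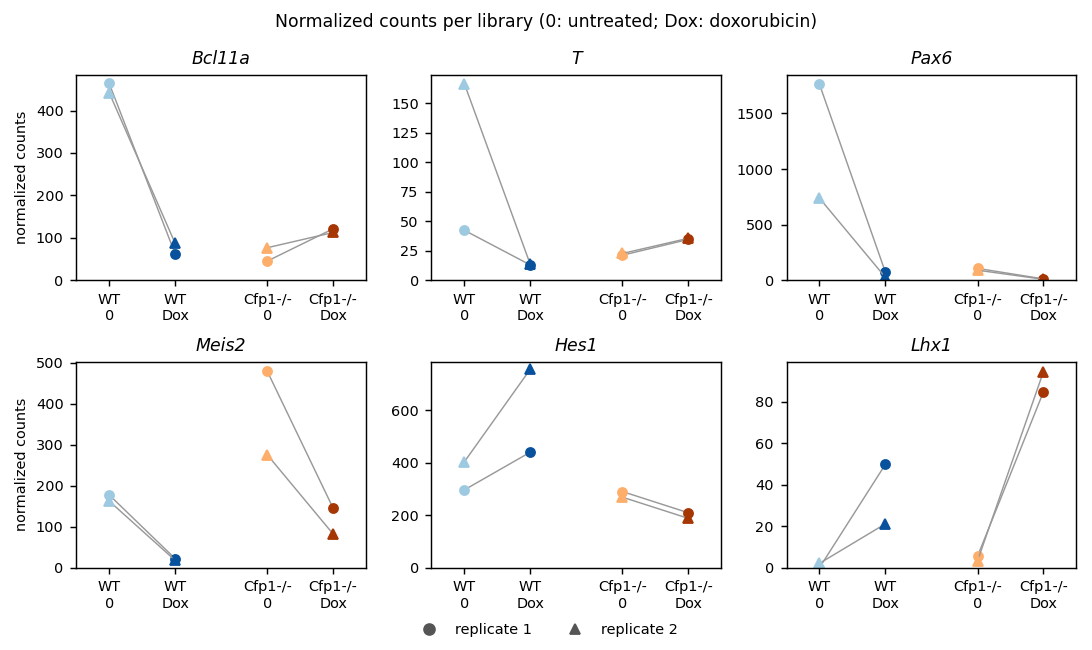
Normalized counts of Bcl11a, T, Pax6, Meis2, Hes1 and Lhx1 in every library, with circles for replicate 1, triangles for replicate 2 and grey lines joining libraries of the same genotype and replicate number. Bcl11a drops from 464 and 442 to 62.9 and 87.7 in WT and goes from 45.4 and 76.9 to 122 and 113 in Cfp1-/- cells, and Lhx1 climbs in both genotypes.

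Several epiblast and neural genes were lower in Cfp1-/- than in WT cells, and 3 were higher. In untreated cells 29.6% of all tested members were lower, beside 16.1% of all tested genes. With doxorubicin 14.8% were lower, near the 10.8% of all tested genes. The share of members that was higher, 11.1% at either treatment, did not exceed that of all tested genes. These shares were not compared by a test. In untreated cells 3 members were higher and 8 lower in Cfp1-/- than in WT cells of 27 tested, beside 17.9% and 16.1% of all tested genes. With doxorubicin 3 were higher and 4 lower, beside 15.1% and 10.8%. Of the 11 untreated calls 10 were among the 18 epiblast and neural genes (3 higher, 7 lower, median log2 -0.57 against 0.01 over all genes), 1 was the mesendoderm gene T, and none of the 5 extraembryonic genes passed by edgeR, with 1 higher and 1 lower at an unadjusted p under 0.05 and 0 by DESeq2. With total count scaling the median of all genes moved by 0.19 in untreated and 0.09 in treated cells, and the share of higher genes among all called genes rose from 52.7% to 70.5% and from 58.3% to 69.2%. These comparisons share their libraries with the doxorubicin responses, so they are not independent of them. WT and Cfp1-/- cells were separate lines. Loss of Cfp1 and any other difference between the lines cannot be told apart here.

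Pou3f1, which encodes the POU factor Oct6 of the primed epiblast, had 0 raw counts in all 4 WT libraries. In Cfp1-/- cells it had 91 and 253 without and 257 and 200 with doxorubicin. Against the floor of 3 counts per library it was at least 52.5-fold higher in untreated (adjusted p = 0.000528) and at least 64.1-fold higher in treated Cfp1-/- cells (adjusted p = 0.000776), and its level with and without the drug did not pass (log2 0.65, SE 0.44, adjusted p = 0.258). In the annotation a further entry named Pou3f1 covers 100% of its exon bases on the same strand, and the deposited start (chromosome 4, 124334050) lies 846 bp before the annotated one, so the part of the gene in which reads were counted is uncertain and no level per kb is given.

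Meis1 and Meis2 were the other members higher in Cfp1-/- cells. Meis1 was 3.37-fold higher in untreated (log2 1.78, SE 0.37, adjusted p = 0.00605) and 5.28-fold higher in treated Cfp1-/- cells (log2 2.43, SE 0.42, adjusted p = 0.00366). Meis2 was 2.22-fold higher in untreated (log2 1.18, SE 0.34, adjusted p = 0.0235) and 5.64-fold higher in treated cells (log2 2.52, SE 0.42, adjusted p = 0.00299). The untreated Meis2 call was lost without replicate 1 (adjusted p = 0.061) or 2 (0.0942) of WT or replicate 1 of Cfp1-/- cells (log2 0.74, adjusted p = 0.192). Their response differences were 0.65 (adjusted p = 0.739) and 1.34 (adjusted p = 0.42) and did not pass.

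Pax6 and Otx2 were lower in Cfp1-/- cells at both treatments. Pax6 was 12.6-fold lower in untreated (log2 -3.62, SE 0.47, adjusted p = 0.000649) and 4.46-fold lower in treated cells (log2 -2.09, SE 0.64, adjusted p = 0.0389). Its treated call was lost without replicate 1 of treated WT (adjusted p = 0.23) or replicate 1 (0.116) or 2 (0.185) of treated Cfp1-/- cells. Otx2 was 1.96-fold lower in untreated (log2 -0.94, SE 0.28, adjusted p = 0.0261) and 4.17-fold lower in treated cells (log2 -2.03, SE 0.34, adjusted p = 0.0033). The untreated Otx2 call was lost with total count scaling (log2 -0.74, adjusted p = 0.0698), in a fit of the untreated groups alone (adjusted p = 0.053) and without replicate 1 (0.0845) or 2 (0.0722) of untreated WT or replicate 1 of untreated Cfp1-/- cells (0.115).

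In untreated cells Bcl11a was 7.4-fold lower (log2 -2.86, SE 0.29, adjusted p = 0.000215), Fgf5 10.6-fold lower (log2 -3.36, SE 0.89, adjusted p = 0.017), T 4.74-fold lower (log2 -2.2, SE 0.57, adjusted p = 0.0152) and Sox4, a SOX factor of progenitor cells, 1.85-fold lower in Cfp1-/- cells (log2 -0.86, SE 0.16, adjusted p = 0.00328). Sox4 had 1097 and 1312 normalized counts in untreated WT against 605 and 698 in untreated Cfp1-/- cells, and 903 and 1041 against 704 and 683 with the drug, so the genotypes did not overlap. For Sox4 a further entry of the same name covers 8.4% of the exon bases, where reads may have been left uncounted. The Fgf5 call was lost without replicate 2 of WT (log2 -1.58, adjusted p = 0.17) or replicate 1 of Cfp1-/- cells (adjusted p = 0.112). That of T was lost without replicate 2 of WT (log2 -0.92, adjusted p = 0.167) or replicate 1 (0.0891) or 2 (0.0704) of Cfp1-/- cells.

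The weakly expressed genes Zic1 and Sox3 were also lower in untreated Cfp1-/- cells. Zic1 had 12 and 13 raw counts in WT against 0 and 2, a ratio of 13.2 (exact 95% counting interval 3.3 to 115, adjusted p = 0.00995), lost without replicate 1 of Cfp1-/- cells (0.0669). Sox3, a SOXB1 factor of neural progenitors, had 24.6 and 43.8 normalized counts in WT against 13.9 and 10.1 (log2 -1.46, SE 0.47, adjusted p = 0.037). The Sox3 call did not pass in 5 alternatives that kept every biological replicate compared, the fit without the run that had lost chromosome X among them (adjusted p = 0.0528), nor without replicate 2 of WT (0.221) or replicate 1 (0.0996) or 2 (0.175) of Cfp1-/- cells.

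With doxorubicin, Nes and Hes1 were lower in Cfp1-/- than in WT cells. Nes had 1081 and 3318 normalized counts in treated WT against 485 and 543 in treated Cfp1-/- cells (log2 -2.07, SE 0.56, adjusted p = 0.0242), a call lost without replicate 2 of WT (log2 -1.05, adjusted p = 0.177) or replicate 1 (0.125) or 2 (0.115) of Cfp1-/- cells. In untreated cells, with 1026 and 3036 against 706 and 1084, Nes did not pass (log2 -1.15, adjusted p = 0.128, or 0.0128 with the replicate block). Hes1 was 3.01-fold lower in treated Cfp1-/- cells (log2 -1.57, SE 0.27, adjusted p = 0.00385), while in untreated cells its log2 difference was -0.29 (SE 0.27, adjusted p = 0.42). Its response difference, -1.27 (SE 0.38, adjusted p = 0.277), did not pass.

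With the replicate number as a block, 6 further members passed between the genotypes in treated cells. Fgf5 (log2 -2.35, adjusted p = 0.00269 against 0.207 without the block), Zic5 (-1.04, 0.0389 against 0.0804), Sox4 (-0.46, 0.0225 against 0.0561) and Sox11 (-0.87, 0.0371 against 0.0865) were lower, and Lhx1 (1.43, 0.0244 against 0.0706) and Sox17 (2.05, 0.0285 against 0.0668) higher in Cfp1-/- cells. In untreated cells Gata6 (log2 1.46, adjusted p = 0.0304 against 0.137) also passed with the block. Zic2, Foxd3 and Six4, which fell with doxorubicin in both genotypes, did not pass between the genotypes at either treatment, with untreated log2 differences of 0.24 (SE 0.21), -0.14 (SE 0.47) and -0.25 (SE 0.17).

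**Figure D4:**
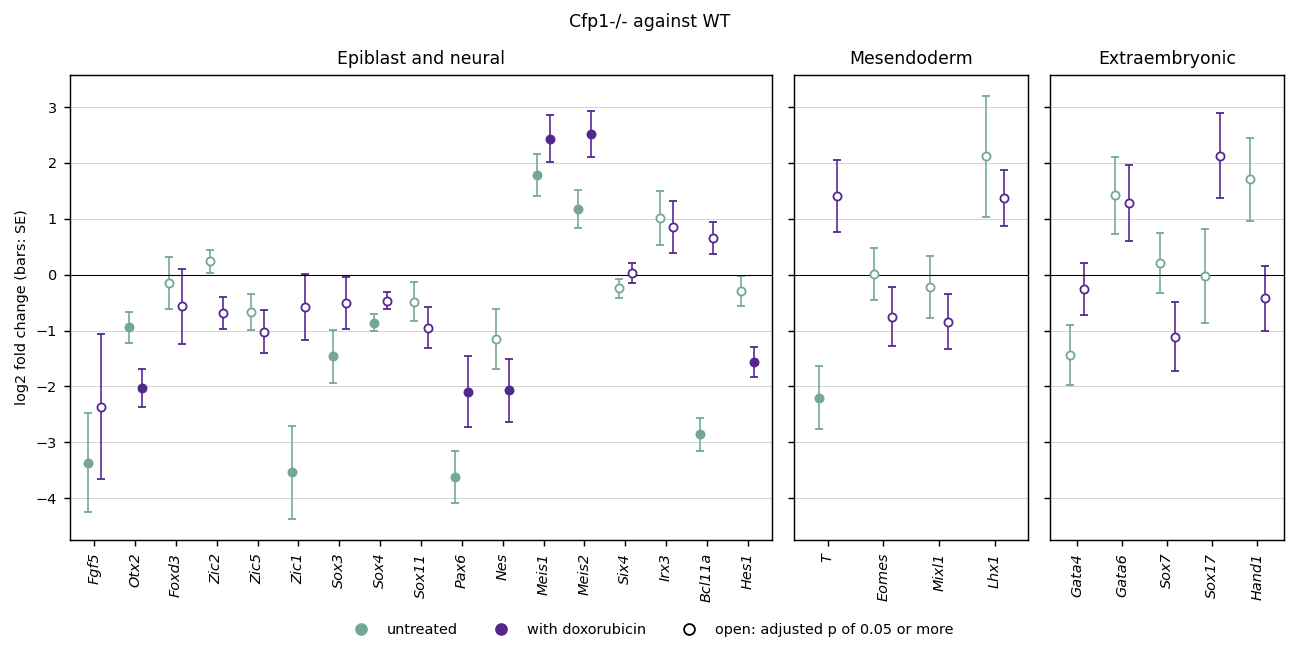
Log2 difference of Cfp1-/- against WT cells without (green) and with doxorubicin (purple) for 26 tested members, with bars of 1 SE from edgeR and open points where the adjusted p is 0.05 or more. Pou3f1 is left out since it had 0 counts in WT. Meis1 and Meis2 lie above 0 and Pax6 and Otx2 below 0 at both treatments, and Bcl11a lies at -2.86 without and 0.66 with the drug.

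Other genes of the same lineages were taken from 3 lists of 39 epiblast and neural, 28 mesendoderm and 26 extraembryonic genes that hold no member. Of 28 tested epiblast and neural genes, 4 rose (14.3%) and 11 fell (39.3%) with doxorubicin in WT cells. In Cfp1-/- cells 8 rose (28.6%) and 7 fell (25%). Of all tested genes 26.5% rose and 21.8% fell in WT, and 27.8% rose and 21% fell in Cfp1-/- cells. Hesx1, a homeobox gene of the anterior neural plate, fell in WT (log2 -3.54, adjusted p = 0.00177) and in Cfp1-/- cells (-4.08, 3.12e-05), as did, in WT, the midbrain genes En2 (-2.66) and En1 (-2.40). In Cfp1-/- cells En2 went from 248 and 232 to 111 and 81.0 normalized counts and fell by DESeq2's Wald test. Pax7, Neurod1 and Irx5 rose in WT by 4.92, 2.70 and 1.56 on the log2 scale, and Pax7 (3.61) and Irx5 (3.52) also rose in Cfp1-/- cells, together with Neurog2. Neurod1 went from 64.0 and 78.6 to 352 and 329 normalized counts in Cfp1-/- cells and rose there by DESeq2's Wald test. Olig2 (log2 -3.19) and Neurog1 (-4.81) fell in Cfp1-/- cells.

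Of 19 tested mesendoderm genes, 11 rose (57.9%) and 3 fell (15.8%) in WT cells, beside 26.5% and 21.8% of all tested genes. In Cfp1-/- cells 9 rose (47.4%) and 3 fell (15.8%), beside 27.8% and 21%. The medians were 2.11 and 1.17 on the log2 scale. Wnt3, a signal that induces the streak, went from 22.1 and 95.9 to 597 and 698 normalized counts in WT and from 13.9 and 24.5 to 859 and 831 in Cfp1-/- cells. Mesp1, a regulator of early mesoderm, was at 0 in both untreated WT libraries and at 34.1 and 33.8 in the treated ones. Mesp2 rose in WT (log2 3.59) and Wnt3a in Cfp1-/- cells (log2 4.40), and by DESeq2's Wald test each rose in both genotypes. Mesp2 went from 11.1 and 8.45 to 118 and 122 normalized counts in Cfp1-/- cells. Wnt3a went from 6.80 and 5.21 to 61.6 and 51.8 in WT cells. Lefty2, a Nodal inhibitor, fell in both genotypes (-1.68 and -2.55), as did Kdr (-1.62 and -1.81) and Isl1 (-1.48 and -2.52).

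Among 25 tested extraembryonic genes, 5 rose (20%) and 1, Lama1, fell (4%) with doxorubicin in WT, beside 26.5% and 21.8% of all tested genes. In Cfp1-/- cells 6 rose (24%) and 4 fell (16%), beside 27.8% and 21%. Gcm1, a trophoblast factor, rose in both (log2 4.43 and 3.46), and so did Pdgfra in WT (3.02) and Krt7 in Cfp1-/- cells (2.2). By DESeq2's Wald test Pdgfra and Krt7 rose, and Lama1 fell, in both genotypes. Plet1 (-2.59), Gata2 (-1.61) and Krt18 (-1.14) fell in Cfp1-/- cells. Hnf4a rose in Cfp1-/- cells (2.03), and Afp, at 0 in untreated WT, rose to 5.24 and 7.39 normalized counts in treated WT cells. Between the genotypes, 11 of the 25 were higher (44%) and 2 lower (8%) in untreated Cfp1-/- cells, beside 17.9% and 16.1% of all tested genes. With the drug 9 were higher (36%) and 5 lower (20%), beside 15.1% and 10.8%. The keratins Krt8 and Krt18 were lower in Cfp1-/- than in WT cells. On the log2 scale they were lower by 3.39 and 2.28 in untreated and 3.53 and 2.90 in treated cells. Afp, Elf5 and Hnf4a, with at most 1.70 normalized counts in untreated WT, had 4.64 to 31.5 in untreated Cfp1-/- cells and passed. With the drug Hnf4a (log2 3.58), Elf5 (2.62) and Lama1 (2.34) were higher and Plet1 lower (-2.19) in Cfp1-/- cells.

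In the epiblast and neural list 5 of 28 genes were higher (17.9%) and 6 lower (21.4%) in untreated Cfp1-/- cells. Over all tested genes these shares were 17.9% and 16.1%. With the drug 7 were higher (25%) and 2 lower (7.14%), beside 15.1% and 10.8%. Olig2, an oligodendrocyte and motor neuron factor, had 0.849 and 2.08 normalized counts in untreated WT against 723 and 593 in untreated Cfp1-/- cells, and with the drug 2.62 and 1.06 against 91.9 and 48.2. Hesx1 was higher in Cfp1-/- cells at both treatments (log2 4.01 and 3.47), and Map2 lower at both (-1.74 and -1.03), with Neurod1 lower with the drug (-1.0). Neurog1 had 0 and 1 raw counts in untreated WT against 43 and 29 in untreated Cfp1-/- cells and passed. Hes3 (-4.42) and Gbx2 (-1.73) were lower in untreated cells. Of the 19 mesendoderm genes, Lefty1 was lower in Cfp1-/- cells at both treatments (-2.40 and -2.84), Snai1 lower (-1.98) and Wnt3a higher (2.10) with the drug. None of the 28, 19 or 25 genes passed the test of the response difference by edgeR, where at an unadjusted p under 0.05 there were 7 with a higher and 1 with a lower response in Cfp1-/- cells in the epiblast and neural list, 1 and 1 in the mesendoderm list and 0 and 5 in the extraembryonic list. In the extraembryonic list Plet1 passed by DESeq2's Wald test.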

How the data were processed

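The 16 RNA-Seq samples formed 4 groups by their labels, with 2 biological replicates a group, each run as 2 technical replicates. The authors depleted ribosomal RNA, prepared strand-specific libraries, used STAR (2.2.1 in the submitters' processing notes) for alignment to NCBIm37 and HTSeq for counting in exons of Ensembl gene models. They deposited raw counts per technical replicate and a signal of normalized counts per biological replicate, obtained by dividing the sum of the counts by the library's DESeq size factor. Union counting leaves out reads on overlapping genes. The overlaps of Pou3f1, Sox4 and Foxd3 come from an annotation that can differ from the authors' gene models. How many reads were lost there is not known. Coordinates of genes are those of the deposited tables.

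Counts of technical replicates were summed. In 6 of 8 pairs they differed by no more than sampling noise (chi-square per degree of freedom 0.998 to 1.048 over genes with at least 50 counts), and replicates 1 of treated WT (9.61) and treated Cfp1-/- cells (42.9) differed more. The latter pair had lost 230 of 285 genes on chromosomes X and Y and 209 of 291 on chromosome 19.

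Fold changes came from edgeR 4.0.16 in R 4.3.3 (filterByExpr, TMM, a coefficient per group, glmQLFit and glmQLFTest) with Benjamini-Hochberg adjustment over 15758 genes. A gene passed at an adjusted p under 0.05. Standard errors follow from the fold change and its test statistic. P-values rest on n = 2 per group and on spread shared between genes. A self-test used simulated counts for 15333 genes. It recovered 99.5% of 200 genes changed 3-fold by doxorubicin in WT cells with 6 false calls. For the response difference it recovered 74.5% with 9 false calls. The changed genes were drawn from those with more counts, and every gene was given the same spread. These rates therefore do not carry over to members with few counts or widely differing replicates. Alternatives were other size factors, DESeq2 1.42.0, no filter, the replicate block, first technical replicates, fits on the groups compared alone, the study's limits (fold change of at least 2.5, mean of at least 200 normalized counts) and each library left out. Deviations of libraries with the same replicate number correlated at 0.178 to 0.575 over 12332 genes in the 6 pairs of groups. What such libraries shared is not known. The main fit held no block and so left this correlation unused. With the replicate block 12 further values of single members passed and 123 kept their call. Counting intervals are exact 95% intervals and, like the floor of 3 counts, cover counting error alone. All 33 members were named, and from the other lists up to 3 genes per direction and comparison with the largest change among those that passed. Plet1 in the test of the response difference was named beyond that rule, after its values were seen. A gene that the rule would name is not reported here. Members and lists were chosen with earlier results of these data known.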

Additional observations from a re-analysis of the deposited data

Results flagged for a closer look

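The response of Bcl11a to doxorubicin differed between the genotypes by the interaction test of edgeR, with a difference of 3.51 on the log2 scale (Cfp1-/- minus WT, SE 0.41, adjusted p = 0.0317). By replicate number the log2 ratio of treated over untreated normalized counts was -2.88 and -2.33 in WT and 1.42 and 0.55 in Cfp1-/- cells, so each WT pair and each Cfp1-/- pair moved the opposite way. For T the same ratios were -1.70 and -3.60 in WT and 0.70 and 0.64 in Cfp1-/- cells, and the interaction test gave 3.61 for this gene (adjusted p = 0.167). No group held enough libraries for a search for outlying libraries.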

How the results depend on the processing

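No member that passed turned its direction under any alternative. Of the 1032 values of single members from alternatives that kept every library of the groups compared, 977 stayed on their side of the threshold, 16 were lost and 39 gained, and with 1 library left out 590 of 648 stayed, 49 were lost and 9 gained. A further 51 changes of sign, in 19 genes, concerned values that had not passed. The study's limits entered neither these values nor the numbers of kept calls that follow. The calls kept by every alternative that gave a value and by every fit without a library were 12 of 16 in WT and 8 of 15 in Cfp1-/- cells for doxorubicin, and 5 of 11 without and 5 of 7 with the drug for the genotype.

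Counts of members moved most under the study's limits, which few weakly expressed genes can meet: 0 rose in WT, 0 rose and 6 fell in Cfp1-/- cells, 1 was higher and 3 lower in untreated and 0 higher and 2 lower in treated Cfp1-/- against WT cells. With the groups compared alone, 2 rose in WT cells and 6 were higher in treated Cfp1-/- cells. By DESeq2's Wald test 3 rose in Cfp1-/- cells, 7 were lower in treated Cfp1-/- against WT cells and 2 passed the response difference. First technical replicates alone gave 2 that rose in Cfp1-/- cells and 5 higher in untreated Cfp1-/- against WT cells. The replicate block gave 5 higher and 8 lower in treated Cfp1-/- against WT cells and 2 in the response difference, as did the fit with no filter on low counts (2), and it changed no call beyond those given beside the results. Beyond the fewer genes or samples of some alternatives, the cause was not tested.

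Leaving out 1 library gave 2 to 4 members that rose and 10 to 13 that fell in WT, 1 to 4 and 7 to 10 in Cfp1-/- cells, 2 to 5 higher and 4 to 9 lower in untreated and 3 to 4 higher and 2 to 4 lower in treated Cfp1-/- against WT cells, and 0 to 2 in the response difference. The lone library left in such a group was assumed to vary like the others. Depth limits Zic1, Irx3, Mixl1, Lhx1 and the extraembryonic genes, which had few counts.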
